A study of Brassica carinata and Brassica napus and Brassica carinata x Brassica napus with 3 samples.

Results

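Arabinogalactan proteins and extensins are the glycoproteins of the plant cell wall whose sequences are rich in hydroxyproline. Here they are followed, entry by entry, through the floral buds of an interspecific Brassica hybrid, of B. carinata and of B. napus. Members are the assembled sequences whose Swiss-Prot name contains arabinogalactan or extensin and whose Swiss-Prot score is at least 0.6 of the score of their hit in Nr, the NCBI protein collection. Of 157663 assembled sequences, 404 met this rule, and they fell on 63 Swiss-Prot entries. Another 543 sequences carried such a name but missed the score ratio, and 506 of those were extensin names. The entries comprise 11 classical arabinogalactan proteins (AGPs), 10 arabinogalactan peptides, 3 lysine-rich AGPs, 19 fasciclin-like AGPs (FLAs) and 20 extensins or extensin-like proteins. In 56 of the 63 entries at least 1 library reached 5 RPKM (reads scaled to sequence length and library total), and 7 stayed below that in every library.

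AGPs carry large arabinose and galactose side chains on a protein core full of alternating proline, alanine, serine and threonine, and many are held at the plasma membrane by a lipid anchor. Arabinogalactan peptides have the same design on a very short core, and FLAs add fasciclin domains, which act in adhesion. Extensins carry repeats of serine followed by several prolines, are cross-linked through tyrosine and stiffen the wall, and leucine-rich repeat extensins (LRX) join such a stem to a leucine-rich repeat domain. In flowers these proteins are known from pollen grains, growing pollen tubes and the transmitting tissue of the pistil.

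The samples were floral buds taken at the initial flowering stage, per the labels: buds of the hybrid, of B. carinata cultivar W29 and of B. napus cultivar Zhongshuang 11. Each group is 1 library, so no difference below has a replicate check, no p-value can be given, and plant, pool and library cannot be told apart from the group. Which species was the mother, the generation of the hybrid and how many plants were pooled were not given in the sources used here. Counted reads came to 27.1 M in the hybrid library, 28.1 M in that of B. carinata and 28.2 M in that of B. napus. A count of 0, for which 3 reads are allowed, permits up to 0.111 RPM (reads scaled to library total) in the hybrid, 0.107 RPM in B. carinata and 0.106 RPM in B. napus. Floral organ genes differed in their order. AP3, a petal and stamen identity factor, had 251 RPKM in hybrid buds, 350.0 in B. carinata buds and 196 in B. napus buds. For PI, of the same list, the values were 312 RPKM in hybrid buds, 291 in B. carinata buds and 191 in B. napus buds. The carpel gene CRC had 236 RPKM in hybrid buds, 131 in B. carinata buds and 189 in B. napus buds. Of the other carpel genes, AGL11 was also highest in hybrid buds (59.2, 38.2 and 39.0 RPKM in that order). AGL5 was highest in B. napus buds (22.2, 3.12 and 27.8 RPKM). RPKM values are sums over the sequences of an entry, log2 ratios are of RPKM + 1, so changes of low entries come out too small, and a difference is called at 2-fold where the higher library reached 5 RPKM. Read ratios are per library total with exact 95% intervals that cover counting error only.

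The family names held unevenly when they were set against the Nr annotation of the same sequences. The Nr hit also named an arabinogalactan, fasciclin or extensin protein for 152 of the 404 sequences, gave no product (hypothetical, unknown and the like) for 180, and named something else for 72. Among extensins, 52 of 187 sequences, with 21.1% of the class's reads, had another product in Nr, such as a transcription elongation factor or a glycine-rich protein. For arabinogalactan peptides the number was 0 of 58, and for classical AGPs 3 of 62, with 0.094% of reads. Of the FLA sequences 15 of 80 had another name: 4 each under FLA8 and FLA18, 3 under FLA17 and the rest under FLA10, FLA15 and FLA16. By reads FLA8 held the most of these, and most reads of FLA15 and FLA18 also lay on sequences with another name. Several extensin entries are therefore given with their sequences, though not every entry in which the names differ.

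Against B. napus, both the hybrid and B. carinata stood lower for more of these entries than they stood higher, although with TMM scaling the hybrid's split turned to 12 higher and 11 lower. The all-entry values in this paragraph are without TMM scaling, which shifts those entries too, so they are no background for the TMM split. Between the hybrid and B. napus, 8 of 56 entries that passed 5 RPKM were at least 2-fold higher in the hybrid (8.51% of all Swiss-Prot entries were) and 17, or 30.4%, at least 2-fold lower (8.07% of all entries). Their median log2 ratio was -0.29, against 0.012 over all 8089 entries. Between B. carinata and B. napus, 12 of 56 were higher in B. carinata (all entries 18.3%) and 21, or 37.5%, lower (all entries 12.8%), with a median of -0.66 against 0.073. The hybrid and B. carinata lay much nearer to each other: 3 of 48 entries were higher in the hybrid (all entries 3.81%) and 5, or 10.4%, lower (all entries 8.44%), with a median of -0.032 against -0.075. Those 2 shares lie near the background. The 3 comparisons use the same 3 libraries, so their counts are not independent of each other.

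Scaling mattered for these splits. TMM factors shift every log2 ratio, before the added 1 RPKM, by 0.18 for the hybrid over B. carinata, 0.46 for the hybrid over B. napus and 0.28 for B. carinata over B. napus, and the median of ratios shifts them by -0.31, -0.033 and 0.28. With TMM factors the hybrid was higher than B. carinata for 6 and lower for 3, whereas the median of ratios gave 1 higher and 8 lower. As shares of reads, the members took 0.366% of the hybrid library, 0.388% of the B. carinata library and 0.476% of the B. napus library.

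**Figure D1:**
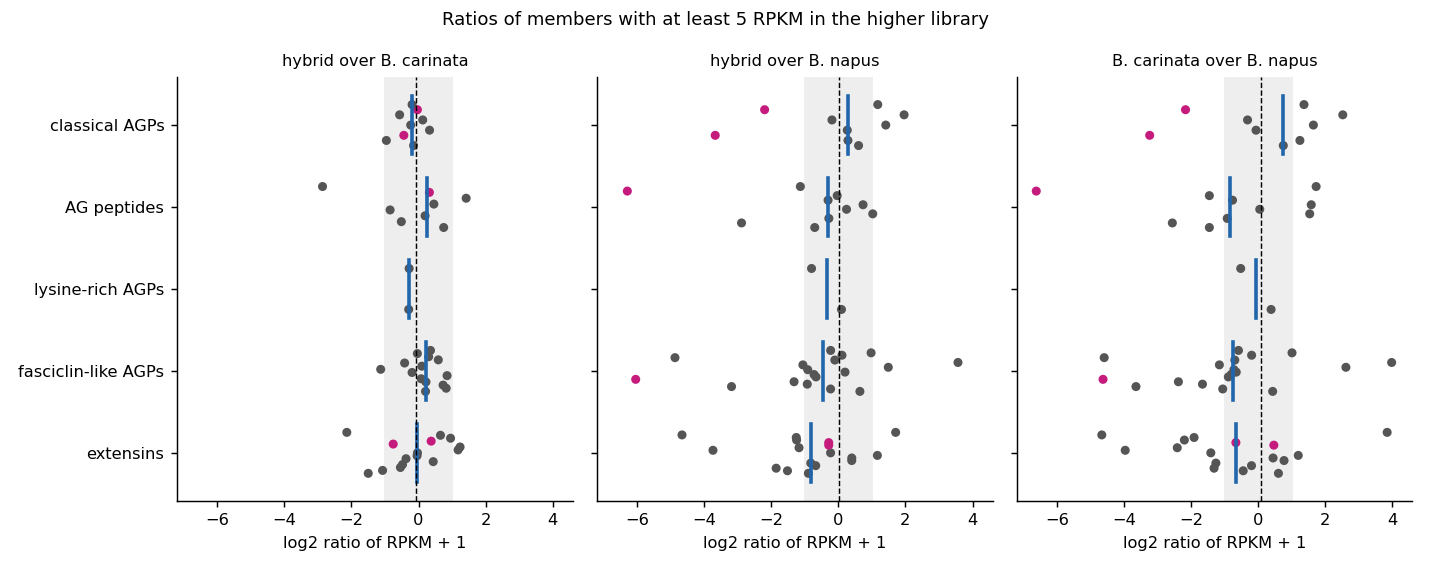
Log2 ratio of RPKM + 1 (x axis) of each member that reached 5 RPKM in either library, by class (rows), for the hybrid over B. carinata, the hybrid over B. napus and B. carinata over B. napus. Blue bars are class medians, the dashed line is the median of all Swiss-Prot entries, grey marks less than 2-fold and pink points are the pollen list; in the hybrid over B. carinata panel 40 of 48 points lie in the grey band, in the other panels 31 and 23 of 56.

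Classical AGPs held 4 entries, AGP4, AGP9, AGP10 and AGP26, that stood 2-fold or more higher in B. carinata than in B. napus, and 3 of them, all except AGP10, were so in the hybrid too. The class summed to 1135 RPKM in hybrid buds, 1323 in B. carinata buds and 788 in B. napus buds. AGP1 led it with 474 RPKM in hybrid buds, 525 in B. carinata buds and 311 in B. napus buds, and its hybrid over B. napus read ratio was 1.54 (interval 1.49 to 1.599). AGP9 followed with 434 RPKM in hybrid buds, 495 in B. carinata buds and 191 in B. napus buds. Its log2 ratio to B. napus was 1.18 in the hybrid and 1.37 in B. carinata, but its read ratios were 1.82 (interval 1.75 to 1.89) and 1.93 (interval 1.86 to 1.996), below 2-fold, since summed RPKM weighs short sequences more. AGP4, known in Arabidopsis as JAGGER for its part in keeping further pollen tubes out of an ovule, had 58.5 RPKM in hybrid buds, 86.8 in B. carinata buds and 14.3 in B. napus buds. That was a log2 ratio of 1.96 for the hybrid over B. napus and 2.52 for B. carinata over B. napus. Over sequences read in all 3 libraries these became 0.58 and 0.46, and both calls were lost. AGP26 had 62.3 RPKM in hybrid buds, 73.4 in B. carinata buds and 22.7 in B. napus buds, at least 2-fold above B. napus in both other libraries. In AGP10 the hybrid was nearer to B. napus, with 40.6 RPKM in hybrid buds, 79.8 in B. carinata buds and 33.1 in B. napus buds. Its log2 ratio of 1.25 for B. carinata over B. napus became 0.91, below 2-fold, over sequences read in all 3 libraries and over those that Nr names. AGP25 and AGP27 lay within 2-fold in every comparison, at 29.97 RPKM in hybrid buds, 23.6 in B. carinata buds and 24.7 in B. napus buds for AGP25.

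AGP6 and AGP11, which act together in Arabidopsis pollen grains and pollen tubes, went the other way. AGP11 had 8.14 RPKM in hybrid buds, 11.4 in B. carinata buds and 115 in B. napus buds, a read ratio of 0.0689 (interval 0.0568 to 0.0827) for the hybrid over B. napus. AGP6 had 11.3 RPKM in hybrid buds, 11.6 in B. carinata buds and 55.4 in B. napus buds, a read ratio of 0.173 (interval 0.147 to 0.203). Both stood low in the hybrid and in B. carinata and high in B. napus, and in bulk buds fewer pollen cells and less RNA per cell cannot be told apart. Nearly all of the B. napus reads of AGP11 fell on one sequence of 567 bases with 60 reads in hybrid buds, 25 in B. carinata buds and 1791 in B. napus buds. A score ratio of 0.8 drops it, and the log2 ratio for the hybrid over B. napus is then 0.56. The other 3 AGP11 sequences had between 7 and 30 reads in the hybrid, 38 to 53 in B. carinata and 0 to 35 in B. napus. Without AGP6 and AGP11, the class's reads in the hybrid over B. napus were 1.66 (interval 1.62 to 1.698), and with them 1.36 (interval 1.33 to 1.39).

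Among the arabinogalactan peptides a single entry held most reads in B. napus. AGP23, a pollen peptide in Arabidopsis, had 21.6 RPKM in hybrid buds, 17.1 in B. carinata buds and 1766 in B. napus buds. It had 259 reads in hybrid buds, 209 in B. carinata buds and 21493 in B. napus buds, and the B. napus reads were 65.6% of the class there. The read ratio was 0.0126 (interval 0.0111 to 0.0142) for the hybrid over B. napus and 0.00976 (interval 0.00847 to 0.0112) for B. carinata over B. napus. Each of its 8 sequences had more reads in B. napus than in either other library, the highest with 116 reads in hybrid buds, 81 in B. carinata buds and 11010 in B. napus buds, and one is named in Nr as a pollen-specific Brassica protein, BAN102. With AGP23 left out, a choice made after its values were seen, the peptides summed to 787 RPKM in hybrid buds, 838 in B. carinata buds and 771 in B. napus buds, and the hybrid over B. napus read ratio was 0.9800 (interval 0.954 to 1.01).

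The other peptides differed in both directions. AGP15 was highest in B. carinata, with 299 RPKM in hybrid buds, 426 in B. carinata buds and 146 in B. napus buds, and lay above B. napus in both the hybrid (log2 1.03) and B. carinata (log2 1.54). AGP12 ran the opposite way, with 145 RPKM in hybrid buds, 85.7 in B. carinata buds and 236 in B. napus buds, and the hybrid was intermediate. AGP13 had 3.14 RPKM in hybrid buds, 4.203 in B. carinata buds and 29.6 in B. napus buds, on only 29 reads in hybrid buds, 40 in B. carinata buds and 290 in B. napus buds. AGP22 resembled B. napus in the hybrid, with 13.6 RPKM in hybrid buds, 4.47 in B. carinata buds and 13.98 in B. napus buds, and the hybrid over B. carinata read ratio was 2.999 (interval 2.24 to 4.07). AGP20 stood higher in B. carinata than in B. napus, with 9.34 RPKM in hybrid buds, 17.6 in B. carinata buds and 5.200 in B. napus buds, but its log2 ratio of 1.58 became 0.74, below 2-fold, both with a score ratio of 0.8 and over sequences that Nr names as such proteins. AGP16 and AGP21, both abundant, lay within 2-fold in every comparison, with 151 RPKM in hybrid buds, 132 in B. carinata buds and 127 in B. napus buds for AGP16. AGP14 was low everywhere, at 4.97 RPKM in hybrid buds, 2.83 in B. carinata buds and 6.25 in B. napus buds. The AGP15 ratios depend on the name match, since its Nr hits are unnamed Brassica proteins with higher scores, and with a score ratio of 0.8 its log2 ratio for B. carinata over B. napus was -0.089.

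AGP24 was the peptide that lay below both parents in the hybrid. It had 6.43 RPKM in hybrid buds, 52.96 in B. carinata buds and 15.3 in B. napus buds, log2 ratios of -2.86 to B. carinata and -1.13 to B. napus. Its 2 sequences behaved differently. The 345-base sequence had 36 reads in hybrid buds, 466 in B. carinata buds and 0 in B. napus buds, and the 415-base sequence had 29 reads in hybrid buds, 58 in B. carinata buds and 179 in B. napus buds. Against B. napus the call rests on the sum: with TMM factors the log2 ratio was -0.72, with a pseudocount of 5 it was -0.83, and for the sequence of highest mean alone 2.28. Over sequences read in all 3 libraries B. carinata was lower than B. napus, at -1.45, in place of 1.73.

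Of the 3 lysine-rich AGPs only 2 passed 5 RPKM, too few to rank this class against the others. AGP18, which in Arabidopsis is needed for the selection of the megaspore in the ovule, had 191 RPKM in hybrid buds, 234 in B. carinata buds and 179 in B. napus buds and 4493 reads in hybrid buds, 5368 in B. carinata buds and 4735 in B. napus buds. AGP19, known from cell division and expansion in Arabidopsis, had 16.2 RPKM in hybrid buds, 19.8 in B. carinata buds and 28.9 in B. napus buds. Both lay within 2-fold in each comparison. AGP17, the third, had 9 reads in hybrid buds, 15 in B. carinata buds and 0 in B. napus buds, below 5 RPKM throughout.

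**Figure D2:**
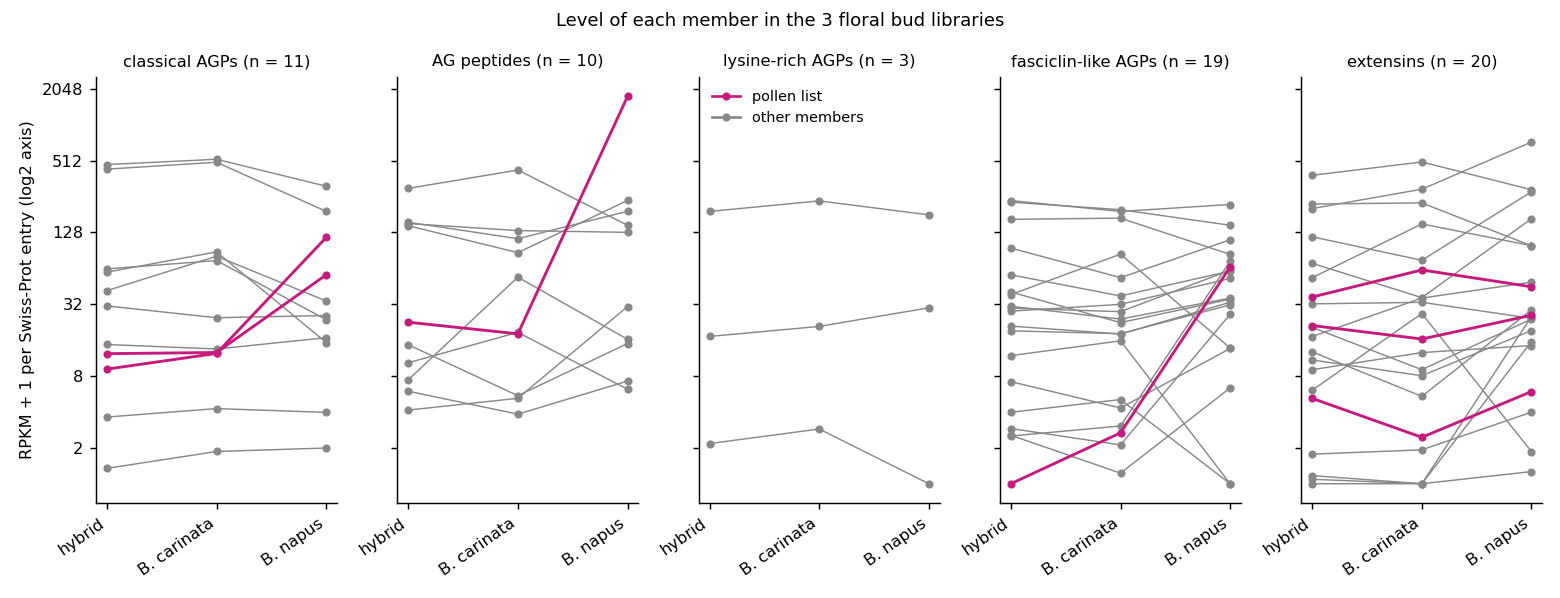
RPKM + 1 on a log2 axis (y axis) of each of the 63 entries in the hybrid, B. carinata and B. napus libraries (x axis), in 5 panels by class, 1 line per entry. Pink lines are the 7 matched entries of the pollen list; the steepest, AGP23, stands at 21.6 RPKM in hybrid buds, 17.1 in B. carinata buds and 1766 in B. napus buds.

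Most FLAs, like most entries of the whole series, were expressed at like levels in the hybrid and in B. carinata. A small group was far higher in B. napus. The class summed to 1003 RPKM in hybrid buds, 892 in B. carinata buds and 1055 in B. napus buds. Of 14 FLAs that passed 5 RPKM in the hybrid or B. carinata, 13 lay within 2-fold, with a median log2 ratio of 0.22. Over all entries 12.2% differed by 2-fold or more in that comparison, so this count is near the background. Against B. napus 5 of 18 were lower in the hybrid (all entries 8.07%) and 2 higher (all entries 8.51%). In B. carinata 7 of 18 were lower than in B. napus (all entries 12.8%) and 3 higher (all entries 18.3%). FLA1, FLA7 and FLA8 were the most abundant. FLA1, which acts in early lateral root and shoot development in Arabidopsis, had 229 RPKM in hybrid buds, 198 in B. carinata buds and 146 in B. napus buds. That sum joins unlike sequences. The 3 that Nr also names had 3649 reads in hybrid buds, 5814 in B. carinata buds and 294 in B. napus buds. On the 2 without a product there were 5701 reads in hybrid buds, 2398 in B. carinata buds and 6142 in B. napus buds. FLA7 had 236 RPKM in hybrid buds, 191 in B. carinata buds and 218 in B. napus buds, within 2-fold in every comparison.

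FLA14 and FLA5 were far more abundant in B. napus. FLA14, a pollen FLA in Arabidopsis, had 0 reads in hybrid buds, 52 in B. carinata buds and 1987 in B. napus buds. The hybrid was thus at least 635-fold lower than B. napus and at least 16.7-fold lower than B. carinata, taking 3 reads per library for the count of 0. All 4 of its sequences were at 0 in the hybrid, and the B. carinata reads lay on one sequence of 1106 bases. FLA5 had 1.51 RPKM in hybrid buds, 2.05 in B. carinata buds and 72.3 in B. napus buds, a read ratio of 0.0268 (interval 0.0194 to 0.0361) for the hybrid over B. napus. FLA11, which with FLA12 shapes secondary walls of the stem in Arabidopsis, had 1.903 RPKM in hybrid buds, 1.11 in B. carinata buds and 25.4 in B. napus buds. FLA12 had 6.17 RPKM in hybrid buds, 3.32 in B. carinata buds and 12.6 in B. napus buds, lower than in B. napus by log2 -1.66 in B. carinata but within 2-fold in the hybrid. FLA13 had 1.55 RPKM in hybrid buds, 0.226 in B. carinata buds and 5.36 in B. napus buds and FLA2 28.7 RPKM in hybrid buds, 26.7 in B. carinata buds and 60.7 in B. napus buds, and both, named after their values were seen, were also at least 2-fold lower than B. napus in the hybrid and in B. carinata. Without FLA5 and FLA14, left out after their values were seen, the class had a hybrid over B. napus read ratio of 1.06 (interval 1.05 to 1.08).

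FLA19 and FLA20 ran against this. FLA19 had 37.5 RPKM in hybrid buds, 83.1 in B. carinata buds and 12.7 in B. napus buds, so that the hybrid lay between the parents, at log2 -1.13 to B. carinata and 1.49 to B. napus. Under TMM factors the first of these was -0.95, and over sequences read in all 3 libraries -0.61, with 0.71 for the second. FLA20 had 159 reads in hybrid buds, 219 in B. carinata buds and 0 in B. napus buds, at least 55.2-fold higher in the hybrid and at least 73.2-fold higher in B. carinata than in B. napus. FLA21, also at 0 in B. napus, had 24 reads in hybrid buds, 40 in B. carinata buds and 0 in B. napus buds. FLA10 had 93.7 RPKM in hybrid buds, 52.5 in B. carinata buds and 110.1 in B. napus buds, within 2-fold of B. carinata in the hybrid by RPKM, with a read ratio of 2.31 (interval 2.18 to 2.45). FLA8 and FLA10 sequences were assembled in one cluster, so reads of near-identical copies can be divided between them.

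None of the remaining FLAs reached a 2-fold change from B. carinata to the hybrid by RPKM, but their ratios were not all small. FLA4, the Arabidopsis SOS5 protein of root cell expansion and seed mucilage, had 55.5 RPKM in hybrid buds, 36.5 in B. carinata buds and 59.7 in B. napus buds. Its hybrid over B. carinata read ratio was 1.61 (interval 1.51 to 1.71). FLA9, FLA15, FLA16 and FLA18 lay within 2-fold in every comparison, all 4 highest in B. napus, where they had between 30.6 and 51.6 RPKM. FLA17 had 39.5 RPKM in hybrid buds, 21.4 in B. carinata buds and 34.3 in B. napus buds. Its log2 ratio of 0.85 to B. carinata was the highest among the 14 FLAs that passed 5 RPKM there.

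Among extensins without a leucine-rich repeat, 5 of 7 entries stood below B. napus by 2-fold or more in hybrid buds (all entries 8.07%). Only 1 stood above it by as much (all entries 8.51%). The 5 were EXT2, EXT3 and the entries of carrot, maize and sorghum. Entries of other plants collected sequences of mixed identity, as described below, which limits this count. All extensins of this kind summed to 463 RPKM in hybrid buds, 615 in B. carinata buds and 1352 in B. napus buds. EXT3, called RSH in Arabidopsis, where the embryo needs it to place new cross walls, was the most abundant of them. It had 202 RPKM in hybrid buds, 294 in B. carinata buds and 732 in B. napus buds, a log2 ratio of -1.85 for the hybrid over B. napus and -1.31 for B. carinata over B. napus. All 12 EXT3 sequences are named extensins in Nr as well. The sequence of 1489 bases had 2973 reads in hybrid buds, 5425 in B. carinata buds and 6404 in B. napus buds, and the one of 965 bases, named extensin 5 in Nr, had 1919 reads in hybrid buds, 2205 in B. carinata buds and 6518 in B. napus buds. By reads the B. carinata ratio was 0.503 (interval 0.491 to 0.517), close to the 2-fold line. Without EXT3, a choice likewise made once its values were known, the whole extensin class had a read ratio of 0.936 (interval 0.9196 to 0.952) for the hybrid over B. napus.

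EXT1 and EXT2 stood lowest in the hybrid. EXT1 had 52.4 RPKM in hybrid buds, 149.9 in B. carinata buds and 98.1 in B. napus buds, a read ratio of 0.355 (interval 0.334 to 0.378) for the hybrid over B. carinata, and its call against B. carinata was kept in 14 of 14 alternatives. EXT2 had 16.2 RPKM in hybrid buds, 35.03 in B. carinata buds and 48.02 in B. napus buds, at log2 -1.07 to B. carinata and -1.51 to B. napus. Most EXT2 reads lay on a sequence of 1462 bases without a product in Nr (336 reads in hybrid buds, 993 in B. carinata buds and 635 in B. napus buds), and on the 3 sequences that Nr also names there were 65 reads in hybrid buds, 93 in B. carinata buds and 336 in B. napus buds. With those alone the log2 ratio to B. carinata was -0.44, with TMM factors -0.898 and with a pseudocount of 5 -0.92.

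Entries of other plants collected proline-rich sequences of mixed identity. The maize extensin entry had 117 RPKM in hybrid buds, 73.8 in B. carinata buds and 279.7 in B. napus buds, and most of its reads lay on sequences that Nr calls a cell wall-plasma membrane linker protein. The carrot extensin entry had 69.5 RPKM in hybrid buds, 35.4 in B. carinata buds and 166 in B. napus buds. Both were named after their values were seen. In each the hybrid was at least 2-fold below B. napus and, by RPKM, within 2-fold of B. carinata, although the carrot entry had a hybrid over B. carinata read ratio of 2.19 (interval 1.95 to 2.48). The sorghum extensin entry was 1 sequence of 419 bases with 0 reads in hybrid buds, 0 in B. carinata buds and 287 in B. napus buds, so the hybrid was at least 91.8-fold and B. carinata at least 95.3-fold lower than B. napus. The tobacco extensin entry had 5.08 RPKM in hybrid buds, 25.7 in B. carinata buds and 0.859 in B. napus buds, and 321 of its 446 reads in B. carinata lay on a sequence whose Nr hit is an unrelated product. Its hybrid over B. napus call was lost in 8 of 13 alternatives, and the log2 ratio was -0.071 when no score ratio was required.

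LRX3 and LRX5 were the most abundant LRX entries in all 3 libraries. LRX3, which in Arabidopsis acts with LRX4 and LRX5 beneath receptor kinases that sense the wall, had 385 RPKM in hybrid buds, 498 in B. carinata buds and 291 in B. napus buds. Its 53 sequences were the most of any member. On the 12 that Nr also names there were 3830 reads in hybrid buds, 5524 in B. carinata buds and 3022 in B. napus buds, and on the 22 with another product 5707 reads in hybrid buds, 7596 in B. carinata buds and 2155 in B. napus buds. LRX5 had 220.5 RPKM in hybrid buds, 225 in B. carinata buds and 97.8 in B. napus buds, at least 2-fold above B. napus in both other libraries by summed RPKM. By reads the hybrid over B. napus ratio was only 1.17 (interval 1.13 to 1.22). On the LRX5 sequence of 2617 bases that Nr names the same way, the hybrid and B. carinata were lower, with 1922 reads in hybrid buds, 1275 in B. carinata buds and 2514 in B. napus buds, and its log2 ratios to B. napus were -0.32 in the hybrid and -0.94 in B. carinata. LRX4 had 31.2 RPKM in hybrid buds, 32.2 in B. carinata buds and 23.4 in B. napus buds. By reads its hybrid over B. napus ratio was 0.826 (interval 0.769 to 0.887). The LRX4 sequence that Nr also names had 761 reads in hybrid buds, 852 in B. carinata buds and 1528 in B. napus buds. On the 3 with another product there were 452 reads in hybrid buds, 419 in B. carinata buds and 191 in B. napus buds. LRX1 and LRX2, which act in root hairs in Arabidopsis, had 8.04 RPKM in hybrid buds, 11.6 in B. carinata buds and 13.4 in B. napus buds for LRX1 and 9.91 RPKM in hybrid buds, 7.05 in B. carinata buds and 18.3 in B. napus buds for LRX2.

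LRX7 and LRX6 were low entries with wide ratios. LRX7 had 3 reads in hybrid buds, 0 in B. carinata buds and 283 in B. napus buds on 2 sequences that Nr calls leucine-rich repeat family proteins, at least 94.01-fold lower in B. carinata than in B. napus. LRX6 had 19.5 RPKM in hybrid buds, 8.04 in B. carinata buds and 23.02 in B. napus buds. The LRX6 call for the hybrid over B. carinata was lost in 7 of 14 alternatives. For B. carinata over B. napus, its log2 ratio was -1.41, and 0.63 for the sequence of highest mean.

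PEX2, PEX3 and PEX4, pollen-specific LRX proteins required in Arabidopsis for the integrity of the pollen tube wall, differed less as entries than AGP6, AGP11, AGP23 and FLA14 did. PEX3 had 35.8 RPKM in hybrid buds, 61.04 in B. carinata buds and 43.8 in B. napus buds, within 2-fold in each comparison. Its reads came from unlike sequences. The 1326-base sequence that Nr names as the same protein had 58 reads in hybrid buds, 6 in B. carinata buds and 245 in B. napus buds, and the 1341-base sequence of the same cluster had 113 reads in hybrid buds, 5 in B. carinata buds and 142 in B. napus buds. Most B. carinata reads of the entry lay on a 1178-base sequence with 230 reads in hybrid buds, 919 in B. carinata buds and 3 in B. napus buds, whose Nr hit is an unnamed maize protein. PEX4 had 20.2 RPKM in hybrid buds, 15.3 in B. carinata buds and 24.9 in B. napus buds, and its 7 sequences with such a name in Nr had 238 reads in hybrid buds, 91 in B. carinata buds and 453 in B. napus buds. PEX2 had 55 reads in hybrid buds, 78 in B. carinata buds and 85 in B. napus buds, below 5 RPKM.

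**Figure D3:**
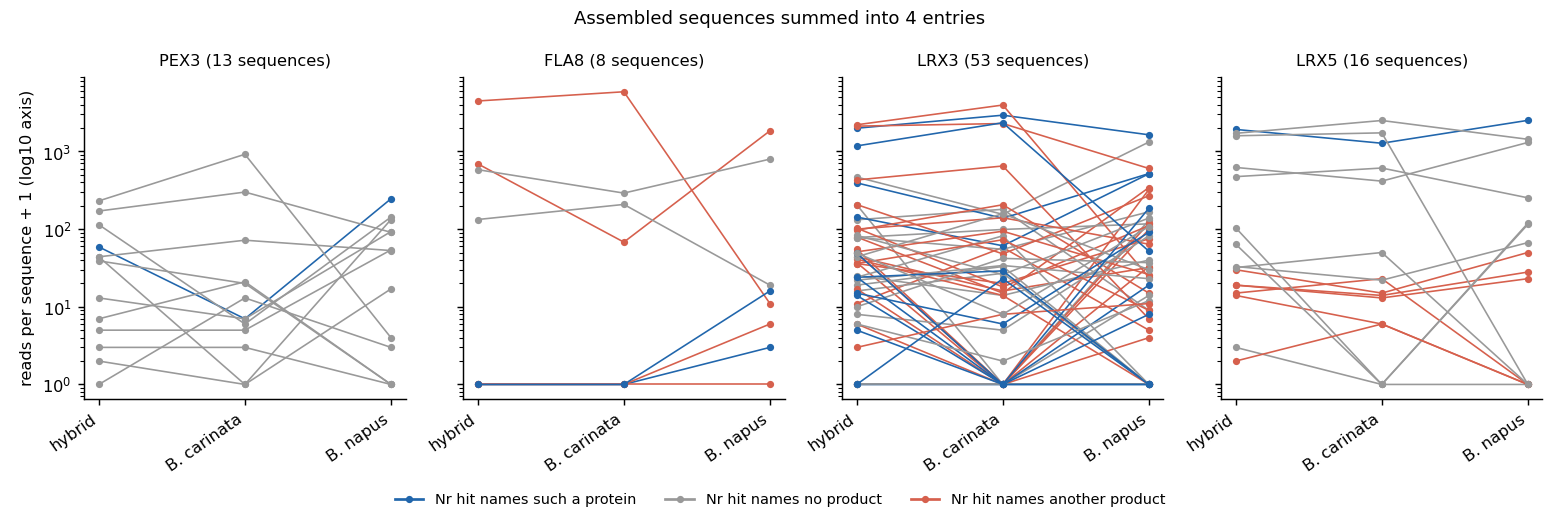
Reads + 1 per assembled sequence on a log10 axis (y axis) in the hybrid, B. carinata and B. napus libraries (x axis) for PEX3, FLA8, LRX3 and LRX5, 1 line per sequence, coloured by what its Nr hit names. In FLA8 the 1524-base sequence, with 4467 reads in hybrid buds, 5870 in B. carinata buds and 10 in B. napus buds, and the 1659-base sequence, with 692 reads in hybrid buds, 67 in B. carinata buds and 1843 in B. napus buds, cross.

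FLA8 shows the same mixture. The entry had 164 RPKM in hybrid buds, 168 in B. carinata buds and 82.7 in B. napus buds, a log2 ratio of 1.01 for B. carinata over B. napus. Most reads of the hybrid and B. carinata lay on the 1524-base sequence, which had 10 reads in B. napus, and most B. napus reads lay on the 1659-base sequence. Nr gives both the older name endosperm-specific protein-like. Left out for that name, they turn the ratio to -0.52.

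The pollen list (AGP6, AGP11, AGP23, AGP40, FLA3, FLA14, PEX2, PEX3 and PEX4, all known from mature pollen or pollen tubes in Arabidopsis) was then read as a group. Of its 9 genes 7 were matched, all except AGP40 and FLA3, and 6 passed 5 RPKM. Of these, 4 of 6 were lower by 2-fold or more in hybrid than in B. napus buds (all entries 8.07%), with a median log2 ratio of -2.93. In B. carinata 4 of 6 were lower than in B. napus (all entries 12.8%), with a median of -2.697. Between the hybrid and B. carinata 5 of 5 lay within 2-fold. Of all entries 12.2% differed by 2-fold or more there, so that count is near the background. It leaves out FLA14, which was below 5 RPKM in both libraries but had 0 reads in hybrid buds and 52 in B. carinata buds. Among the members outside the list, 12 of 49 (24.5%) were lower in the hybrid than in B. napus and 8 higher, with a median of -0.23. Low levels of AGP6 and AGP11 were already known when the list was chosen, so it is no independent evidence.

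Markers of mature pollen moved with these members. The pectin methylesterase PPME1 had 0.504 RPKM in hybrid buds, 0.279 in B. carinata buds and 127 in B. napus buds, and the pollen proton pump AHA6 had 0.385 RPKM in hybrid buds, 0.989 in B. carinata buds and 55.5 in B. napus buds. The actin-binding proteins PRF4 (listed as PRO4) and ADF7 had 0.248 and 0.075 RPKM in hybrid buds, 0.527 and 0.245 in B. carinata buds, and 30.00 and 21.99 in B. napus buds. GEX1, expressed in gametes, went another way, with 6.64 RPKM in hybrid buds, 2.501 in B. carinata buds and 3.42 in B. napus buds. Over the 5 matched of 7 late pollen markers outside the family, the summed level was 7.85 RPKM in hybrid buds, 4.54 in B. carinata buds and 238 in B. napus buds. The pollen coat and tapetum markers (5 of 5 matched) summed to 4237 RPKM in hybrid buds, 16368 in B. carinata buds and 6766 in B. napus buds. LTP12 and A9 carried that sum, and the other 3 were highest in B. napus: GRP17 had 18.6 RPKM in hybrid buds, 3.63 in B. carinata buds and 141 in B. napus buds, EXL4 had 50.2 RPKM in hybrid buds, 155 in B. carinata buds and 383 in B. napus buds and EXL6 had 104 RPKM in hybrid buds, 97.9 in B. carinata buds and 268 in B. napus buds. The 4 matched of 6 exine genes summed to 189.8 RPKM in hybrid buds, 560.1 in B. carinata buds and 101 in B. napus buds. Their part in the AGP and FLA results was not tested.

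**Figure D4:**
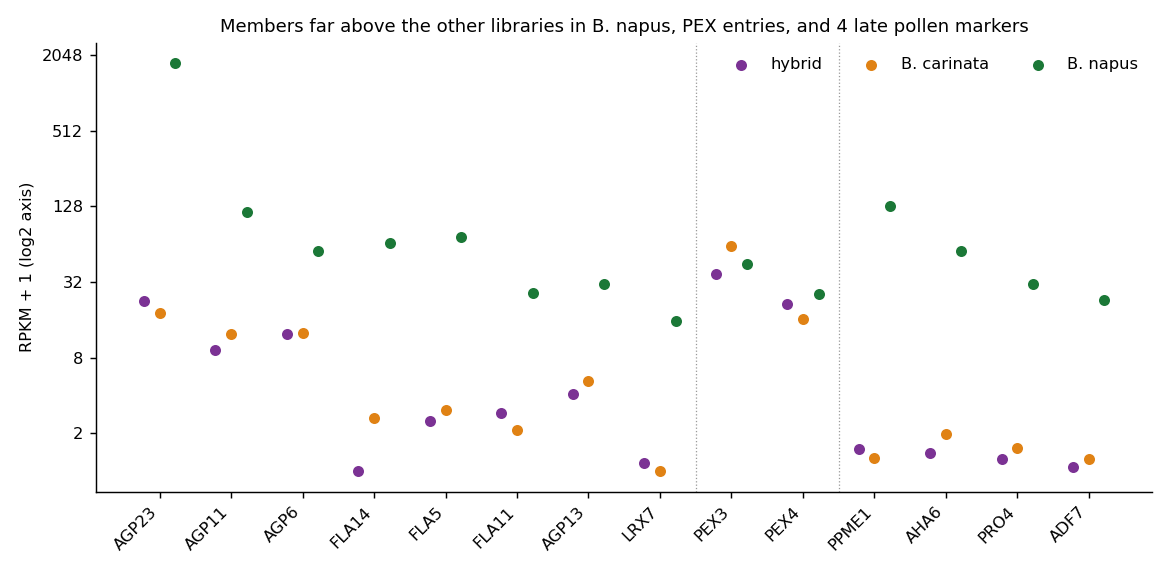
RPKM + 1 on a log2 axis (y axis) in the hybrid, B. carinata and B. napus libraries for 8 members far above the other libraries in B. napus, for PEX3 and PEX4 and for 4 late pollen markers outside the family (x axis, in that order). In the first and last groups the B. napus point lies highest. The hybrid and B. carinata points there lie near each other except in FLA14, at 0 RPKM in the hybrid and 1.67 in B. carinata. PEX3 is highest in B. carinata, at 61.04 RPKM, against 43.8 RPKM in B. napus.

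The hybrid lay between its parents for 38 of 56 entries (67.9%), against 58.5% of all Swiss-Prot entries with at least 5 RPKM in a library. Members at least 2-fold above both parents numbered 0 (all entries 0.235%), and 3 were at least 2-fold below both (all entries 1.23%). These were AGP24, EXT2 and FLA14. FLA14 entered because B. napus passed 5 RPKM, its B. carinata level being only 1.67 RPKM. With a pseudocount of 5 none of the 3 remained, and with TMM factors 1 did.

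Many members, like entries of the whole series, are assembled in part as sequences that only one parent's reads matched, and the hybrid carried both kinds. Of 345 member sequences with at least 10 reads in a parent, 62 (17.97%) were read in B. carinata with 0 reads in B. napus, against 17.7% of all sequences under the score rule. Another 41 (11.9%) were read in B. napus with 0 reads in B. carinata, against 6.78%. In the hybrid 4 of the 62 had no read (all sequences 6.47%), and 11 of the 41 had none (all sequences 11.5%). The 17.97% and the 4 of 62 are near the background. The 11 included 3 of FLA14 and 2 of FLA5. Which genome a sequence comes from was not tested, and a count of 0 can also arise where reads go to a near-identical copy.

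By share of hybrid reads, arabinogalactan peptides were the class most divided between such sequences, chiefly through AGP15 and AGP16. Sequences read in B. carinata and not in B. napus held 27.02% of the hybrid's peptide reads (exact interval 26.2 to 27.9, reads taken as independent), and those read in B. napus and not in B. carinata held 11.2% (10.6 to 11.8). Over all sequences under the score rule these shares were 4.33% and 0.7999%. For classical AGPs they were 15.4% and 0%, for FLAs 2.75% and 0.327%, and for extensins 7.37% and 3.197%. The peptide shares were 2937 and 1213 hybrid reads, and most of each lay in AGP15 and AGP16. In AGP15, 3 sequences were read in B. carinata and not in B. napus and held 1833 of the hybrid's 3954 reads. Another 4 were read in B. napus alone of the parents and held 747. AGP16 had 538 and 458 of 2251 reads on such sequences, and its total differed little between the parents. Both were chosen after their values were seen. On the sequences that only B. carinata shared, the hybrid had 0.619 of that parent's reads per library total over all members (all sequences 0.494), and on those that only B. napus shared 0.329 (all sequences 0.383). For FLAs this second value was 0.0575, with FLA14 and FLA5 among them.

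**Figure D5:**
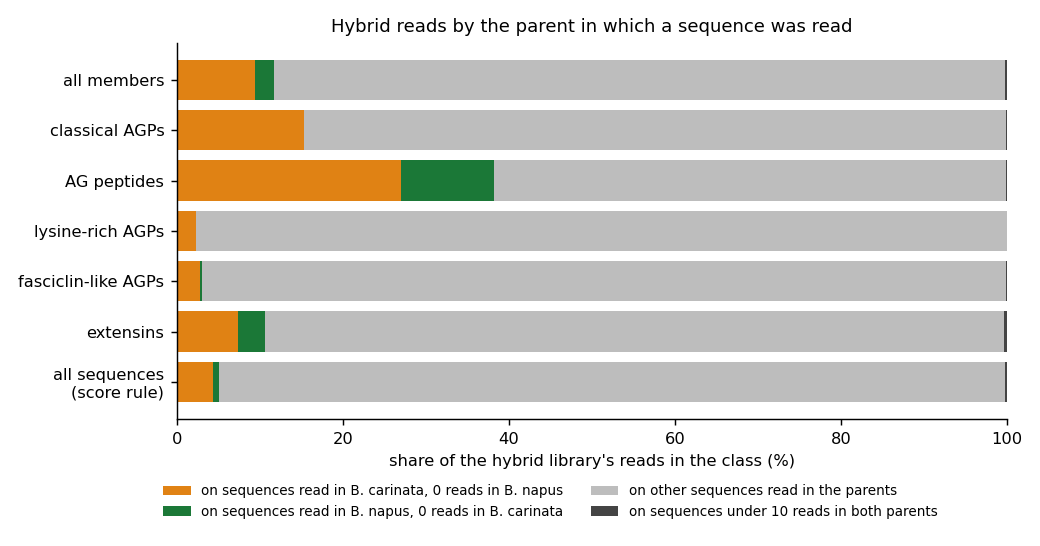
Share of the hybrid library's reads in each class (x axis, %), split by whether the sequence they fell on was read in one parent and not in the other, with at least 10 reads in that parent. The AG peptide bar has the widest coloured part, 27.02% and 11.2%; the bottom bar is all sequences under the score rule.

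Genes that build these glycoproteins or share their place in the wall were counted in the same way. Swiss-Prot names matched 20 beta-1,3-galactosyltransferases, the family that includes enzymes extending arabinogalactan chains, 7 fucosyltransferases, 3 UDP-arabinopyranose mutases, which supply the sugar form used for arabinose chains, and 11 COBRA proteins, which act in oriented cell expansion. Prolyl 4-hydroxylases and hydroxyproline glycosyltransferases had no match under the names searched. In all, 2 of 31 genes were higher and 3 lower in the hybrid than in B. carinata, 0 of 33 higher and 4 lower in the hybrid than in B. napus, and 3 of 35 higher and 4 lower in B. carinata than in B. napus. Among all entries, 12.2%, 16.6% and 31.1% differed in either direction in these 3 comparisons. B3GALT8 was lowest in the hybrid, with 119 RPKM in hybrid buds, 514 in B. carinata buds and 349 in B. napus buds, at log2 -2.105 and -1.55. The mutase RGP2 had 495 RPKM in hybrid buds, 522 in B. carinata buds and 538 in B. napus buds. FUT4 and FUT6, the fucosyltransferases known from AGPs in Arabidopsis, stayed below 2 RPKM in all 3 libraries. FUT1, which acts on xyloglucan, had 18.3 RPKM in hybrid buds, 22.4 in B. carinata buds and 10.6 in B. napus buds. The COBRA protein itself had 94.8 RPKM in hybrid buds, 106 in B. carinata buds and 88.8 in B. napus buds, and COBL6 had 18.7 RPKM in hybrid buds, 8.52 in B. carinata buds and 47.4 in B. napus buds.

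The 7 entries below 5 RPKM in every library were AGP2, AGP3, AGP17, FLA21, PEX2, EPR1 and the tobacco pistil-specific extensin-like protein. The highest value among them was 4.93 RPKM, for PEX2 in B. napus. The pistil entry had 2 reads in hybrid buds, 0 in B. carinata buds and 7 in B. napus buds.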

How the data were processed

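RNA of floral buds was sequenced in 3 libraries, 1 per group, on the Illumina platform, from Trizol-extracted and DNase-treated RNA, per the labels' protocols. The software for assembly, alignment and counting was not given in the sources used here. Raw read counts for each assembled sequence are in the deposited table, with library totals in the headers that equal the sums of the counts, per the file headers. It also holds RPKM values by the authors, and 100% of the 472989 deposited values equalled the count over length and total within 5e-05. The alignment scores of the Nr and Swiss-Prot hits were used as deposited. The genes' strand and position are not given in the table.

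Members were found by Swiss-Prot name and score ratio, and RPKM and counts were summed per Swiss-Prot entry. The members just outside and just inside the ratio of 0.6 had 0.597 and 0.609. A sequence counted as read in 1 parent alone with at least 10 reads there and 0 in the other. Near-identical copies can share reads, so single sequences are uncertain. The members, lists and alternatives were chosen with earlier results of these data known. The rule for named entries takes the pollen list, the 3 highest per class, the 4 largest ratios per class and comparison, and those outside both parents, 40 in all, and most other members are named to account for them. The values of 1 entry are not reported here. The counting rule and intervals were tested on simulated data. edgeR 4.0.16 (R 4.3.3) gave the TMM factors, and the rest came from Python 3.11.15 with pandas 2.3.3, SciPy 1.17.1 and matplotlib 3.10.9. With 1 library per group no test was run. Alternatives covered pseudocount, minimum, scaling, score ratio and summing (12 planned), and 2 filters on the Nr name were added after the data were seen.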

Additional observations from a re-analysis of the deposited data

How the results depend on the processing

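For the hybrid over B. carinata, where 3 members were higher and 5 lower, TMM factors gave 6 and 3, the median of ratios 1 and 8 with a median log2 ratio of -0.33, the sequence of highest mean 9 and 8, and sequences read in all 3 libraries 5 and 3. The higher count was 0 with a pseudocount of 5, 1 with no score ratio, and 5 with a minimum of 1 RPKM, with no minimum or with sums of RPM, and the lower count was 2 over sequences that Nr names as such proteins. For the hybrid over B. napus, 8 higher became 15 with the sequence of highest mean, 3 over sequences read in all 3 libraries and 5 over those that Nr names. With TMM factors 17 lower became 11 and the median was 0.15. Those factors shift all entries too, by 0.46 in log2 before the added 1 RPKM. The all-entry median of 0.012 is without them, so 0.15 cannot be set beside it. For B. carinata over B. napus, 12 higher became 20, 7 and 5 under those 3 ways of choosing sequences. The median log2 ratio of -0.29 for the hybrid over B. napus was -0.78 with the sequence of highest mean, -0.63 over sequences that Nr names and -0.19 with no score ratio. That of -0.66 for B. carinata over B. napus lay between -0.95 over sequences that Nr names and -0.34 with no score ratio. The 3 members below both parents became 0 with a pseudocount of 5 and 1 with TMM factors, the sequence of highest mean, sequences read in all 3 libraries or those that Nr names. The calls of AGP23, AGP6, FLA14, FLA5, FLA11 and AGP13 below B. napus held under every alternative that kept the entry. Directions turned for AGP11 with a score ratio of 0.8 (0.56 for the hybrid and 1.74 for B. carinata over B. napus) and AGP15 (-0.089, B. carinata over B. napus). They turned for AGP24 over sequences read in all 3 libraries (-1.45, B. carinata over B. napus) and with the sequence of highest mean (2.28, hybrid over B. napus), and for LRX6 with that choice (0.63, B. carinata over B. napus). FLA8 turned in B. carinata over B. napus without sequences that Nr names as another product (-0.52) and over those it names as such proteins (-1.32). LRX5 turned over sequences read in all 3 libraries (-0.102 for the hybrid and -0.072 for B. carinata over B. napus) and over those that Nr names (-0.32 and -0.94). The tobacco extensin entry turned with no score ratio (-0.071, hybrid over B. napus). Calls were also lost for AGP9 over sequences read in all 3 libraries (0.95, hybrid over B. napus), AGP15 with the median of ratios (0.99, hybrid over B. napus), AGP22 with a pseudocount of 5 (0.98, hybrid over B. carinata), EXT2 with the sequence of highest mean (-0.79, hybrid over B. napus) and FLA10 in 5 of 14 alternatives (B. carinata over B. napus). The cause was not tested. No paired analysis was possible because each group has 1 library. Leaving out replicates was likewise not possible. Depth limits low entries: AGP13, AGP24, FLA5, FLA11, FLA13, PEX2 and the tobacco extensin entry, among others, had under 100 reads in the hybrid.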
